A study of Mus musculus with 2 samples.

Results

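Interferon-responding myeloid cells of the mouse retina were taken as the C1q-positive cells that held transcripts of several interferon-stimulated genes at once. A cell was selected when no more than 20% of its unique molecular identifiers (UMIs, each standing for 1 captured transcript) came from mitochondrial genes, when C1qa, C1qb and C1qc, the complement genes of microglia and macrophages, summed to at least 3 UMIs, and when at least 4 of 10 interferon-stimulated genes (Ifit1, Ifit2, Ifit3, Isg15, Rsad2, Mx1, Slfn5, Irf7, Usp18 and Oasl2) had a UMI. The cells were thus chosen by measured values, the UMIs of these 13 genes. The rule chose 215 of 1843 C1q-positive cells, among 2708 cells in all. They were compared with the 1628 other C1q-positive cells of the same libraries.

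The cells came from retinas of C57BL/6j mice at P17, sorted by FACS as CD11b+F4/80+, a gate shared by microglia, macrophages and monocytes. The conditions were room air (RA), the disease-free control, and oxygen-induced retinopathy (OIR), a model in which pups breathe high oxygen and then return to room air, so that the retina loses vessels, becomes hypoxic and grows pathological tufts. Each condition had 1 library of pooled retinas, so condition and library cannot be told apart, and the cells of 1 library do not replicate a condition. For this reason no p-values are given. The RA library held 1449 cells and 12810892 UMIs, the OIR library 1259 cells and 9835402 UMIs, and the libraries shared 0 cell barcodes.

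Type I interferons bind the receptor IFNAR, whose signal leads to a complex of transcription factors, with IRF9 as its DNA-binding part. This complex binds interferon-stimulated response elements in promoters and switches on antiviral genes, while interferon-γ favours guanylate-binding proteins and antigen presentation. Microglia and macrophages with such a program are known from development, ageing, infection and injury of the central nervous system.

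The core of a response element, GAAANNGAAA on either strand (TTTCNNTTTC when read on the other), was searched in the 300 bases around the start of each gene in RefSeq's GRCm38.p6 annotation, the same assembly as mm10. Of the 10 selecting genes 8 had a promoter in the table, and 5 of the 8 (62.5%) held the motif, against 3.99% of 27025 genes. Isg15, Ifit3 and Rsad2 are shown because Isg15 had the highest level of the selecting genes in RA and Ifit3 and Rsad2 were among those with the largest ratios, with the motif in capitals and the window running from 250 bases before to 50 bases after the start. Isg15 lies at chr4:156200769-156201068 on the minus strand, with overlapping matches that begin 78, 72 and 66 bases before the start. Ifit3 lies at chr19:34583279-34583578 on the plus strand and Rsad2 at chr12:26456403-26456702 on the minus strand.
Isg15: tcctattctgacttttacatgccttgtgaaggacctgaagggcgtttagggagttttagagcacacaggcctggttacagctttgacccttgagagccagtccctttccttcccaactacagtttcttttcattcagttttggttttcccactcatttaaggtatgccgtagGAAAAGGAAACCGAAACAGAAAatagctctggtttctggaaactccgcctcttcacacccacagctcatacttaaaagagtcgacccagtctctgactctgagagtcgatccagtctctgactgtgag
Ifit3: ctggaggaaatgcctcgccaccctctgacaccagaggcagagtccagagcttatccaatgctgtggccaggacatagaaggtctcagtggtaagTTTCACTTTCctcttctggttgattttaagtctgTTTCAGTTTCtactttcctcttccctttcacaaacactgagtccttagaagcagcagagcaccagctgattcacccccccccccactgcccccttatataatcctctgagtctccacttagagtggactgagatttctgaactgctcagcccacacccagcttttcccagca
Rsad2: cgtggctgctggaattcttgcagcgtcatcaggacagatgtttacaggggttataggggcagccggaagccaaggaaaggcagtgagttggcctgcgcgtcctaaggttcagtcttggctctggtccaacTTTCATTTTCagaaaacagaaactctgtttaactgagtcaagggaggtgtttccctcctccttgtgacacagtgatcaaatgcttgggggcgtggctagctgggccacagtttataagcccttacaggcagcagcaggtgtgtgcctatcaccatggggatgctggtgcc

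Ifit1 and Slfn5 also held the motif, and these letters were not found in the windows of Ifit2, Irf7 and Oasl2. Among genes that did not select the cells, the motif stood in 20 of 44 promoters (45.5%) of other interferon-stimulated genes and in 9 of 11 (81.8%) of interferon-γ-induced GTPases and related genes, against 0 of 15 promoters of glycolytic genes. A match describes the sequence and does not show a bound site.

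The selecting genes differed between the groups by construction, and their values describe the selection. A level is the number of UMIs of a gene in all cells of a group together, scaled to 1000000 UMIs of that group (CPM). Ratios are log2 of 2 such levels, and the 95% intervals in parentheses cover counting error only. Isg15, a ubiquitin-like modifier, was at 378 CPM in interferon-responding cells of RA and 151 CPM in those of OIR, against 25.6 and 25.4 CPM in the other C1q-positive cells. Ifit3, which binds viral RNA with other IFIT proteins, was at 197 and 165 CPM against 2.28 and 6.13 CPM. Rsad2, the antiviral enzyme viperin, was at 133 and 104 CPM against 1.82 and 3.68 CPM. Irf7, the factor that amplifies interferon production, was the selecting gene with the highest level in OIR, at 221 CPM, and stood at 199.6 CPM in RA.

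Rods, which should lack this program, served as the background. Of cells with at least 5 rod markers and under 3 C1q UMIs, 0 of 361 in RA and 0 of 249 in OIR held 4 of the selecting genes. With 3 cells taken as the limit for a count of 0, this allows shares of up to 0.831% and 1.20% at the depth of these rods. Interferon-responding cells had medians of 12928 and 13139 UMIs, so the rods give no limit at their depth. At least 1 selecting gene had a UMI in 4.71% and 8.03% of these rods, whose median depth was 1732 and 1243 UMIs. Isg15 had a UMI in 93.9% of interferon-responding cells in RA and 76.7% in OIR, against 0% of rods in both libraries. Irf7 had a UMI in 90.9% and 91.4% of interferon-responding cells, 10.3% and 15.7% of the other C1q-positive cells, and 4.43% and 6.83% of rods. After thinning to 2000 UMIs the other C1q-positive cells held it in 3.30% and 4.15%, below the unthinned rods, and no expression in those cells was read from this gene.

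Cells lay on both sides of the threshold. In RA 40 cells held 3 selecting genes and 18 held 4, and in OIR these numbers were 49 and 34. At the other end, 11 RA cells and 5 OIR cells held all 10. The median interferon-responding cell held 7 of the 10 genes in RA and 6 in OIR.

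A further 55 interferon-stimulated genes were not used for the selection, and their summed level followed it. In RA they summed to 8296 CPM in interferon-responding cells and 2279 CPM in the other C1q-positive cells, a log2 ratio of 1.86 (1.83 to 1.89). In OIR the levels were 6947 and 2751 CPM, a log2 ratio of 1.34 (1.30 to 1.37). Per cell, their level in RA interferon-responding cells ran from 2040 CPM over a median of 8562 to 40136 CPM, and in OIR from 2274 over 7332 to 18797 CPM. The other C1q-positive cells had medians of 1865 CPM in RA and 2233 CPM in OIR, but single cells reached 18068 and 19900.5 CPM, so the groups overlapped.

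The same genes were higher in cells with more selecting genes. In RA their summed level was 1800 CPM (1764 to 1836) in cells with 0 selecting genes, 4914 CPM with 3, 5112 CPM with 4 and 11938 CPM with 10. In OIR the corresponding levels were 2042, 4463, 5994 and 10219 CPM. Across the threshold the counting intervals overlapped in RA, 4726 to 5108 CPM with 3 genes and 4853 to 5381 CPM with 4, and did not in OIR, 4303 to 4627 CPM and 5759 to 6237 CPM. In RA 8 selecting genes (11726 CPM) stood above 9 (9674 CPM), so the order was not strict. Macrophage-marker cells, defined below, became more frequent along the same axis. In RA they were 12 of 563 cells with 0 selecting genes, 12 of 40 with 3, 7 of 18 with 4 and 8 of 11 with 10. In OIR they were 19 of 511, 23 of 49, 24 of 34 and 4 of 5. Their part in the rise was not tested here.

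**Figure D1:**
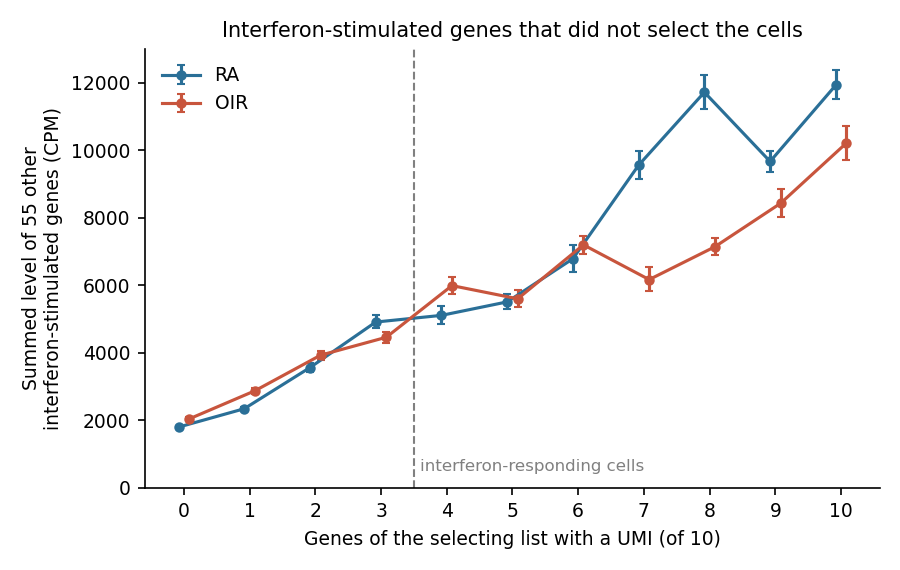
Summed level of 55 interferon-stimulated genes that did not select the cells (y axis, CPM) against the number of selecting genes with a UMI in a cell (x axis), for RA and OIR, with 95% counting intervals. The levels run from 1800 CPM (RA) and 2042 CPM (OIR) at 0 genes to 11938 and 10219 CPM at 10 genes. The intervals on either side of the dashed threshold overlap in RA and not in OIR. Macrophage-marker cells rise along the same axis, from 12 of 563 to 8 of 11 in RA and from 19 of 511 to 4 of 5 in OIR.

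By gene, a ratio of 2-fold or more after adding 5 CPM to each level was called, among genes with at least 50 CPM in 1 group and 10 UMIs over both groups together. In RA 34 of the 39 other interferon-stimulated genes that met this level were higher and 0 lower, where 7.31% of all 3159 genes were higher and 0.538% lower. In OIR 24 of 33 were higher and 0 lower, where 4.70% of 3258 genes were higher and 0.829% lower. These genes respond to the same signal as the selecting genes, and a gene that reached 50 CPM in the interferon-responding cells alone had to differ, so the counts describe the cells and are no independent support.

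Ifitm3, which blocks viral entry at endosomes, had the highest level of the list in RA, at 1045 CPM against 84.9 CPM, a log2 ratio of 3.62 (3.50 to 3.75). In OIR it was at 568 against 147 CPM, 1.94 (1.82 to 2.07). Ifi27l2a was at 663 against 70.5 CPM in RA and 446 against 136 CPM in OIR. Bst2, or tetherin, which holds budding virions at the membrane, was at 619 against 154 CPM in RA and 560.2 against 210.1 CPM in OIR. Oasl1, a regulator of Irf7 translation, had 74.2 against 2.62 CPM in RA and 60.0 against 4.59 CPM in OIR. Of the DNA-binding Ifi200 family, Ifi211 was at 123 against 2.16 CPM in RA and 104 against 13.2 CPM in OIR. Members of this family, the Oas genes, the Gbp genes and Ifit3 with Ifit3b are close copies, and reads could be lost or split between them.

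Among 11 interferon ligands Ifnb1 was the gene with UMIs to count. In RA the interferon-responding cells held 36 Ifnb1 UMIs in 4 of 99 cells, 22 of them in 1 cell and 11 in another, and the 839 other C1q-positive cells held 13 UMIs in 8 cells. In OIR the numbers were 3 UMIs in 2 of 116 cells and 13 UMIs in 4 of 789 cells. Of the 11 ligands, 9 in RA and 10 in OIR had 0 UMIs in interferon-responding cells. Ligand transcripts under 1.56 CPM in RA and 1.41 CPM in OIR, the level of 3 UMIs in the summed cells, were not detectable at this depth.

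The receptor chains were near the level of the other cells, and Stat2, a transcription factor that they activate, was not. Ifnar1 was at 63.3 against 53.1 CPM in RA and 79.2 against 58.6 CPM in OIR, and Ifnar2 at 164 against 158 CPM and 225 against 207 CPM. Ifngr1 was at 383 against 424 CPM in RA and 411 against 466 CPM in OIR. Stat2 was at 72.6 against 14.7 CPM in RA, a log2 ratio of 2.31 (1.95 to 2.66), and at 40.3 against 12.2 CPM in OIR, 1.72 (1.26 to 2.18). Irf9 had ratios of 0.56 and 0.47. Socs3, an inhibitor of cytokine signalling, was lower in both libraries, at 736 against 1034 CPM and 879 against 1245 CPM.

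Sensors of foreign nucleic acid and related genes differed from gene to gene. Zbp1, which senses Z-form nucleic acid, was at 115 against 6.03 CPM in RA and 89.1 against 17.2 CPM in OIR. Ifih1, or MDA5, a sensor of long double-stranded RNA, was at 125 against 30.9 CPM and 86.7 against 29.7 CPM. Samhd1, which depletes nucleotides, was at 329 against 78.3 CPM and 213 against 97.4 CPM. Tlr7, an endosomal sensor of single-stranded RNA, was at 137 against 126 CPM and 144 against 96.6 CPM. Tmem173, the DNA-sensing adaptor STING, was at 104 against 147 CPM in RA and 69.8 against 86.1 CPM in OIR. Mb21d1, or cGAS, was at 42.5 against 40.4 CPM and 38.4 against 32.3 CPM.

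The guanylate-binding and immunity-related GTPases, which attack vacuoles of intracellular pathogens, were also higher in summed level. As a list of 19 genes they stood 2.44 (2.33 to 2.56) above the other cells in RA and 1.72 (1.60 to 1.83) in OIR. Within the macrophage-marker class these ratios were 1.48 (1.23 to 1.73) and 0.81 (0.64 to 0.98), and within the marker-free class, both defined below, 2.24 and 2.31. Iigp1 was at 103 against 0.569 CPM in RA and 50.6 against 2.60 CPM in OIR. Irgm1 was at 61.7 against 10.5 CPM and 68.9 against 24.3 CPM. Gbp2 differed more in RA, at 90.2 against 8.87 CPM, than in OIR, at 33.8 against 13.9 CPM.

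MHC class I genes, which present peptides from inside the cell, differed less. The 17 genes summed to 7030.5 against 4514 CPM in RA, a log2 ratio of 0.64 (0.61 to 0.67), and to 8190.2 against 6062 CPM in OIR, 0.43 (0.41 to 0.46). The nonclassical H2-T23 had the largest ratio of this list in OIR, 1.16 (1.01 to 1.31), and 1.29 (1.13 to 1.45) in RA. Psmb9, an immunoproteasome subunit, was at 121 against 41.5 CPM in RA and 159.9 against 84.8 CPM in OIR, and Tap1, the peptide transporter, at 110.5 against 47.9 CPM and 127 against 66.6 CPM. Within the macrophage-marker class the list ratios were 0.25 and 0.17. Of 16 genes with enough counts 4 were called higher in RA and 0 lower, beside 7.31% higher and 0.538% lower of all genes. Of 15 in OIR H2-T23 alone was called, higher, a share near the 4.70% of all genes.

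MHC class II genes, which present ingested antigen, had ratios that differed by marker class and when cells were chosen anew at lower depth. The 6 genes stood 3.50 (3.45 to 3.55) above the other cells in RA and 1.29 (1.23 to 1.34) in OIR. At 2000 UMIs per cell, with the rule choosing 30 cells anew in RA, the RA ratio reversed to -0.83 (-1.33 to -0.37). The original RA cells thinned to this depth still held H2-Aa more often, in 19.4% against 0.978% of the other cells. Cd74 stood at 32.7% against 18.5% and H2-DMa at 31.6% against 30.1%. Depth and the choice of cells were not separated for the ratio. The OIR ratio from all UMIs was -0.055 within macrophage-marker cells and -0.25 within marker-free cells. H2-Aa, an α chain of class II, was at 1008 against 21.2 CPM in RA, but its UMIs lay in 22 of 99 cells. In OIR it was at 343 against 81.9 CPM, with UMIs in 8 of 116 cells. Cd74, the invariant chain, was at 3226 against 182 CPM in RA, with UMIs in 74 of 99 cells, and 1416 against 462 CPM in OIR. Dendritic cell markers summed to 30 UMIs in the interferon-responding cells of RA and 23 in those of OIR, 15.6 against 6.71 CPM and 10.8 against 5.51 CPM, with 2 and 3 of the 6 markers at 0 and Cd209a and Zbtb46 the most abundant. Their part in the class II levels was not tested.

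Interferon-induced chemokines differed by gene and by library. Ccl12, a ligand of CCR2, was at 2515 against 1257 CPM in RA and 1032 against 629 CPM in OIR. Cxcl10, which draws T cells, was at 1133 against 749 CPM in RA but at 1179 against 1157 CPM in OIR, log2 ratios of 0.60 (0.53 to 0.67) and 0.03 (-0.04 to 0.09). Ccl5 was called higher in both libraries, but 431 of its 576 UMIs in RA and 103 of its 188 in OIR lay in 1 cell.

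Most interferon-responding cells carried macrophage markers. A cell with at least 3 UMIs over Mrc1, Cd163, Lyve1, Ms4a7 and Cbr2, genes of border and perivascular macrophages, was put in a macrophage-marker class. This class held 67 of 99 interferon-responding cells in RA (67.7%) and 77 of 116 in OIR (66.4%), but 12.2% and 19.3% of all C1q-positive cells. Within the class 58.8% of cells were interferon-responding in RA (49.2% to 67.9%, n = 114) and 44.0% in OIR (36.5% to 51.7%, n = 175). Pf4, a platelet chemokine also made by border macrophages, was at 1782 against 145 CPM in RA and 1099 against 226 CPM in OIR, and Mrc1, the mannose receptor, at 624 against 57.2 CPM and 945 against 162 CPM.

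Cells with none of the macrophage, monocyte or cycling marker sets, called marker-free here, made up most C1q-positive cells and few of the interferon-responding ones. The rule chose 27 of 800 such cells in RA, or 3.38% (2.24% to 4.87%), and 26 of 579 in OIR, or 4.49% (2.95% to 6.51%). Cells with at least 3 UMIs over the monocyte markers Ccr2, Ly6c2, Plac8, Hp and Ifitm6 were interferon-responding in 13 of 28 cases in RA and 23 of 61 in OIR. Cells with at least 3 of 8 mitotic genes were so in 4 of 12 cases in RA and 32 of 169 in OIR. The classes overlap and are ranges of marker UMIs, not cell types. In RA 5 C1q-positive cells held exactly 3 macrophage-marker UMIs and 3 held 2, in OIR 13 and 16, while interferon-responding cells of the class had medians of 31 and 47.

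Depth moved with the selection. Interferon-responding cells had a median of 12928 UMIs and 3254 genes in RA and 13139 UMIs and 3518 genes in OIR, while the other C1q-positive cells had 10217 UMIs and 2890 genes, and 6872 UMIs and 2266 genes. In 4 ranges of depth with equal numbers of cells over both libraries, from shallow to deep, the share chosen was 4.76%, 7.79%, 6.94% and 20.7% in RA and 3.88%, 9.26%, 15.3% and 29.0% in OIR. Macrophage-marker cells followed the same pattern, since interferon-responding cells of this class had a median of 17358 UMIs in RA and 16397 in OIR, against 9386 and 7443.5 for the rest of the class. The part of depth in the share was examined by thinning.

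At equal depth the share was lower in both libraries. Of all C1q-positive cells the rule chose 10.6% in RA (8.66% to 12.7%) and 12.8% in OIR (10.7% to 15.2%). After every cell was thinned to 2000 UMIs, it chose 30 of 911 in RA, or 3.29% (2.23% to 4.67%), and 21 of 782 in OIR, or 2.69% (1.67% to 4.08%), with 22 and 119 cells too shallow to enter. The intervals of the libraries overlapped both times, so no order was read from them. In the macrophage-marker class the thinned shares were 19.1% in RA (12.2% to 27.7%) and 7.50% in OIR (3.94% to 12.7%). In marker-free cells they were 1.15% (0.529% to 2.18%) and 1.43% (0.575% to 2.92%). Of monocyte-marker cells the rule then chose 1 of 25 in RA and 2 of 60 in OIR, or 3.33% (0.406% to 11.5%). Of cycling cells it chose 1 of 11 and 3 of 146, or 2.05% in OIR (0.426% to 5.89%). The intervals of these 2 classes in OIR overlapped that of all C1q-positive cells.

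**Figure D2:**
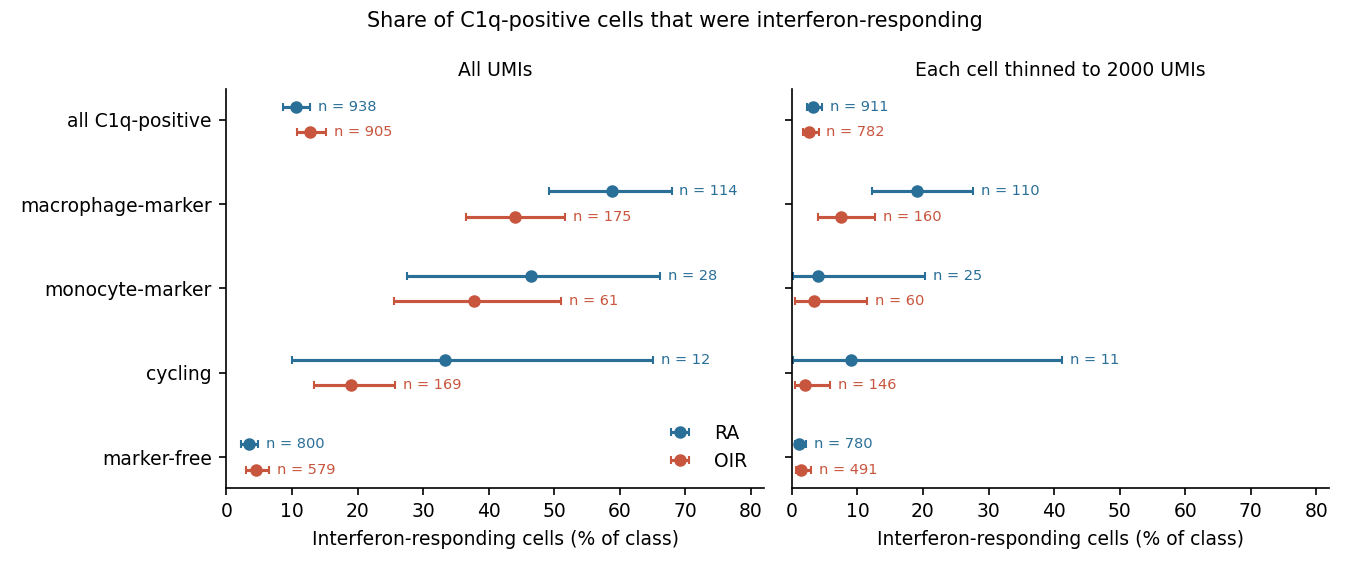
Share of interferon-responding cells (x axis, percent) in all C1q-positive cells and in 4 marker classes (y axis) for RA and OIR, with exact 95% binomial intervals, from all UMIs (left) and after thinning each cell to 2000 UMIs (right). Macrophage-marker cells stand highest in both panels for RA, at 58.8% and 19.1%, and marker-free cells lowest, at 3.38% and 1.15%.

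Within the marker classes most list ratios were smaller or of another size. Among macrophage-marker cells 3.23% of 3097 genes were higher in RA and 0.484% lower, and in OIR 0.989% of 3337 genes were higher and 0.599% lower. Among marker-free cells 5.15% of 3105 genes were higher in RA and 0.419% lower, and in OIR 3.12% of 3113 genes were higher and 2.76% lower. The other interferon-stimulated genes stood 0.94 (0.88 to 1.005) above the rest of the macrophage-marker class in RA and 0.65 (0.61 to 0.70) in OIR, on the log2 scale. Within the marker-free class their ratios were 1.62 (1.56 to 1.68) and 1.67 (1.59 to 1.74), close to each other in the 2 libraries.

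Chemokines were higher in the marker-free interferon-responding cells than in the other marker-free cells. The list had log2 ratios of 1.31 (1.25 to 1.38) in RA and 1.53 (1.43 to 1.62) in OIR, against 0.49 and 0.21 in the macrophage-marker class. Cxcl10 had ratios of 1.39 and 1.62 among marker-free cells, against 0.73 and -0.04 among macrophage-marker cells. MHC class II genes kept ratios of 1.98 and 1.62 in the classes of RA but stood at -0.06 and -0.25 in those of OIR. In the marker-free cells of RA all 60 H2-Aa UMIs of interferon-responding cells lay in 1 cell.

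**Figure D3:**
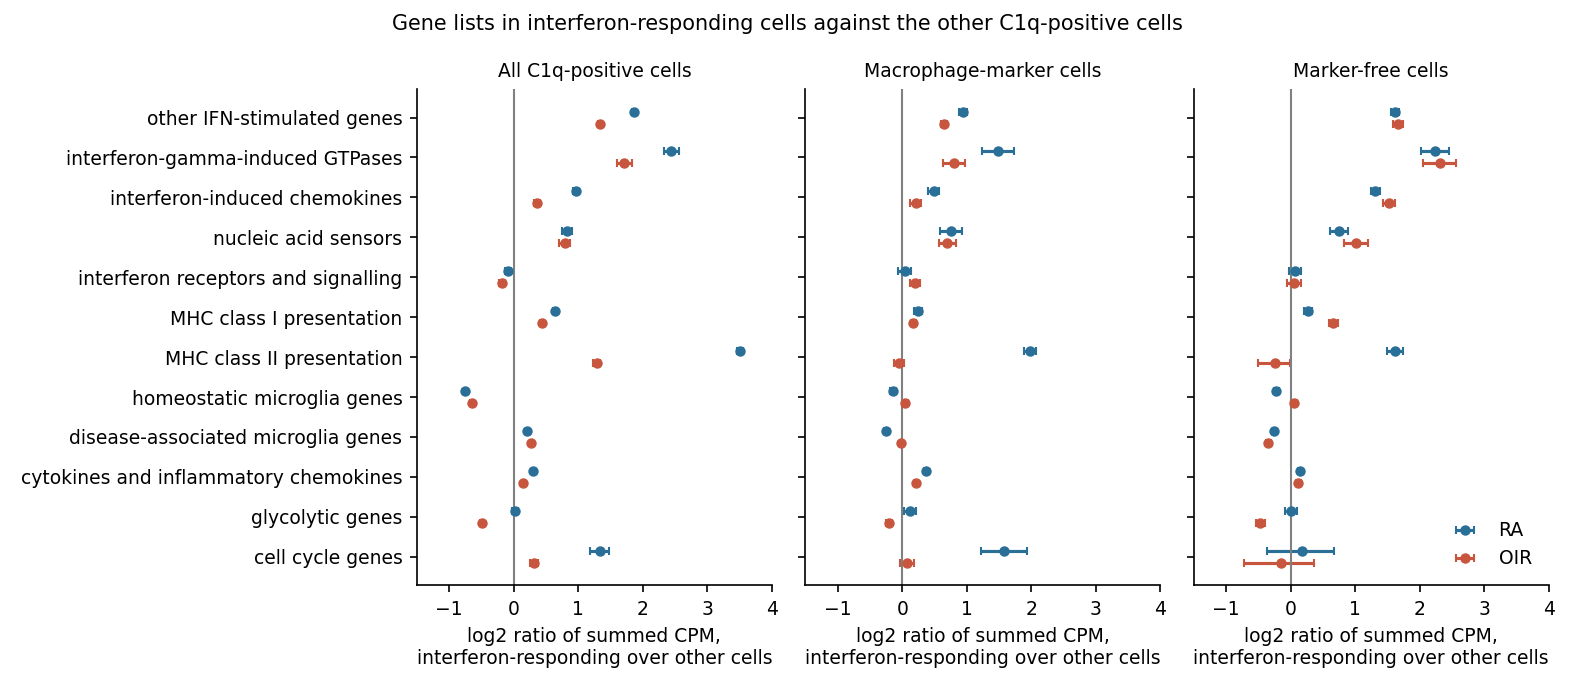
Log2 ratios of summed CPM, interferon-responding over other cells (x axis), for 12 gene lists (y axis) in all C1q-positive, macrophage-marker and marker-free cells of RA and OIR, with 95% counting intervals. Other interferon-stimulated genes lie to the right of 0 in every panel, from 0.65 to 1.86, while homeostatic genes lie left of 0 in all C1q-positive cells (-0.75 and -0.65) and within 0.22 of it in the marker classes.

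Homeostatic microglia genes were lower in interferon-responding cells as a whole. The 10 genes summed to 10270.4 against 17299 CPM in RA, a log2 ratio of -0.75 (-0.77 to -0.73), and to 8455 against 13286 CPM in OIR, -0.65 (-0.68 to -0.63). P2ry12, the purinergic receptor of surveying microglia, was at 687 against 1386 CPM in RA and 424 against 701 CPM in OIR, and Tmem119 at 261 against 519.8 CPM and 197 against 323 CPM. Within the marker-free class the list ratios were -0.22 (-0.26 to -0.19) and 0.05 (0.00 to 0.10), and within the macrophage-marker class -0.14 and 0.05. Without 1 erythroid-rich cell, described below, the marker-free ratio in RA was -0.04 (-0.08 to -0.01). P2ry12 was the 1 gene of the list called lower in RA, where 0.538% of all genes were, and 0 were without the erythroid-rich cell. In OIR 0 of the 10 were called, beside 0.829% of all genes called lower.

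Genes of disease-associated microglia differed in direction. Of 11 with enough counts in RA, Spp1, Gpnmb and Lgals3 were called higher and 0 lower, beside 7.31% and 0.538% of all genes. Of 12 in OIR Gpnmb was called higher and Cst7 and Cd9 lower, beside 4.70% and 0.829% of all genes. The list stood at 0.20 (0.19 to 0.21) in RA and 0.27 (0.26 to 0.28) in OIR, but it was at -0.25 and -0.02 within the macrophage-marker class and at -0.25 and -0.35 within the marker-free class, with -0.07 in RA without the erythroid-rich cell. Its sign was kept in 16 of 19 alternative settings in RA and in 15 of 19 in OIR. Apoe was the most abundant at 26068 against 21184 CPM and 29384.5 against 21216 CPM. Axl, a receptor for apoptotic cells, was at 132 against 66.4 CPM and 177 against 114 CPM. Spp1, or osteopontin, was at 64.8 against 11.04 CPM in RA, with 117 of its 125 UMIs in 1 cell, and at 349 against 482 CPM in OIR. In OIR Cst7 and Cd9 were at 42.7 against 92.2 CPM and 787 against 1679.8 CPM.

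As a list, cytokines and inflammatory chemokines had log2 ratios of 0.31 in RA and 0.14 in OIR, with members in both directions. Over the alternatives these ratios ran from 0.018 to 0.44 and from -0.095 to 0.70. Ccl2, Ccl7 and Cxcl2 were higher in both libraries and Tnf and Il1a lower, and other members of the list are not given here. Ccl2 was at 3351 against 1235 CPM in RA and 5235 against 2486.5 CPM in OIR, Ccl7 at 2118 against 289 CPM and 3398 against 774 CPM, and the neutrophil attractant Cxcl2 at 3641 against 495 CPM and 2928 against 1099 CPM. Tnf was at 1014 against 1409.9 CPM and 1098 against 1916 CPM, and Il1a at 1292 against 2094 CPM and 1162 against 2218 CPM. Within the macrophage-marker class the log2 ratios of Ccl7 were 0.65 and 0.49 and those of Cxcl2 0.68 and 0.35, and within the marker-free class -0.86 and 0.21, and 0.74 and -0.32.

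Glycolytic genes separated the libraries more than the cell groups. The 15 genes summed to 2601 against 2572 CPM in RA, a log2 ratio of 0.02 (-0.03 to 0.06), and to 5664 against 7992 CPM in OIR, -0.50 (-0.53 to -0.47). In OIR Pgam1 was at 319.7 against 530.4 CPM and Aldoa at 474 against 795 CPM. No gene of the list was called in either direction in RA or in OIR. Among macrophage-marker cells of OIR the list ratio was -0.21 (-0.26 to -0.16) and among marker-free cells -0.47 (-0.54 to -0.40).

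Cell cycle genes were higher in interferon-responding cells by a log2 ratio of 1.33 (1.19 to 1.48) in RA, from 313 against 124 CPM, and 0.31 (0.25 to 0.38) in OIR, from 1177 against 947 CPM. Without macrophage-marker cells the RA ratio reversed to -0.57 (-1.02 to -0.15), and the OIR ratio kept its sign in 14 of 19 alternatives. Cycling cells made up 4 of the 99 interferon-responding cells in RA and 32 of the 116 in OIR. All 4 in RA and 27 of the 32 in OIR also carried macrophage markers. Birc5, or survivin, a mitotic regulator, had UMIs in 2 RA cells, 1 of which held 90.6% of them.

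Malat1, an abundant nuclear long noncoding RNA, was close to the level of the other cells within each library and far apart between libraries. In RA it was at 18107 CPM (17917 to 18298) in interferon-responding cells and 18726 CPM (18635 to 18816) in the other C1q-positive cells, a log2 ratio of -0.05. In OIR it was at 5703 CPM (5602 to 5805) against 6356 CPM (6295 to 6417), a log2 ratio of -0.16. The ratio of OIR to RA among interferon-responding cells was -1.67 on the log2 scale, and -1.56 among the other cells. Per cell, the quartiles of interferon-responding cells were 13337, 16562 and 22693 CPM in RA and 3422, 5903 and 8259.5 CPM in OIR. Those of the other cells were 12749, 17650.3 and 23885 CPM in RA and 0, 4462 and 8437 CPM in OIR, so that the OIR medians stood in the opposite order to the summed levels. Within macrophage-marker cells the summed ratios were 0.20 in RA and 0.065 in OIR.

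Cells without a Malat1 UMI were few among interferon-responding cells. They made up 4.04% (1.11% to 10.0%) of these in RA and 7.76% (3.61% to 14.2%) in OIR, against 4.77% and 32.6% of the other C1q-positive cells. Depth moved with this difference, and its part was examined by depth range. In OIR cells of up to 5000 UMIs, 7 of 13 interferon-responding and 224 of 315 other cells had no Malat1 UMI. Over 10000 UMIs this held for 0 of 80, which allows up to 4.51%, and for 6 of 247. Of the interferon-responding cells of OIR 69.0% had over 10000 UMIs, and of the other cells 31.3%. Among macrophage-marker cells of OIR, 5.19% of interferon-responding and 38.8% of other cells had no Malat1 UMI. Among marker-free cells of OIR these shares were 19.2% (6.55% to 39.4%) and 32.4% (28.5% to 36.4%), with overlapping intervals. In rods, Malat1 had a UMI in 44.3% of cells in RA and 35.3% in OIR.

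**Figure D4:**
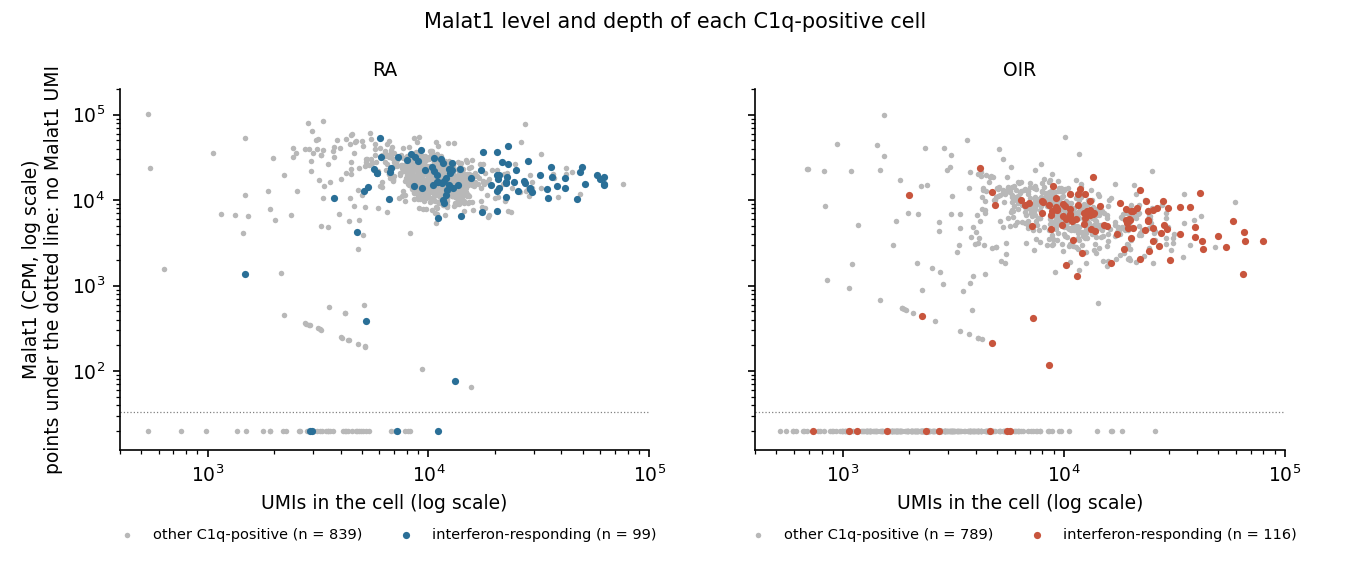
Malat1 level (y axis, CPM, log scale) against the UMIs of each C1q-positive cell (x axis, log scale) in RA and OIR, with cells lacking a Malat1 UMI drawn under the dotted line. The OIR cells without Malat1 are mostly shallow, with 224 of 315 other cells of up to 5000 UMIs among them, and interferon-responding cells sit mostly to the right, over 10000 UMIs.

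Among interferon-responding cells alone, the OIR library differed from the RA library in many genes, with 5.77% of 3449 genes higher and 6.03% lower by 2-fold or more. The other interferon-stimulated genes had a log2 ratio of -0.26 (-0.29 to -0.22). Of 40 such genes with enough counts, Oas1a was the 1 called, higher in OIR at 87.2 against 39.9 CPM. In marker-free interferon-responding cells the ratio of this list was 0.13 (0.04 to 0.21), and 0.019 (-0.071 to 0.11) without the erythroid-rich RA cell. Among all interferon-responding cells but the cycling ones and the erythroid-rich RA cell it was -0.15 (-0.19 to -0.11).

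Glycolytic genes were higher in the OIR cells, with a log2 ratio of 1.12 (1.08 to 1.17) among interferon-responding cells and 1.64 (1.61 to 1.66) among the other C1q-positive cells. Of 13 genes 7 were called higher, beside 5.77% of all genes. Among these 7 were Pgk1 at 321 against 83.5 CPM and Gapdh at 2171 against 782 CPM. Hk2 and Slc2a1, the entry steps of glucose use, were called lower, at 73.1 against 191 CPM and 45.5 against 97.5 CPM, beside 6.03% of all genes. The C1q genes were higher by 0.62 (0.60 to 0.64) and cell cycle genes by 1.91 (1.78 to 2.04). Without cycling cells and the erythroid-rich RA cell described below the cell cycle ratio was 0.13 (-0.17 to 0.43). Cycling cells were defined by mitotic genes, so this fall was largely set by leaving them out. MHC class II genes were lower by a log2 ratio of -1.23 (-1.28 to -1.19), with 4 of 6 genes called lower, while among the other cells they were higher in OIR, 0.99 (0.93 to 1.04). Without cycling cells and the erythroid-rich cell their ratio was -0.58 (-0.63 to -0.53), with 0 of 6 genes called. Without macrophage-marker cells it was -0.077 (-0.16 to 0.0034). At 2000 UMIs per cell, with 21 cells in OIR and 30 in RA chosen anew, it reversed to 2.99 (2.49 to 3.52). The original cells thinned to this depth held H2-Aa in 6.25% in OIR and 19.4% in RA, and H2-Eb1 in 7.14% and 20.4%. H2-DMb1 went the other way, at 24.1% and 18.4%. Depth and the choice of cells were not separated for this ratio.

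**Figure D5:**
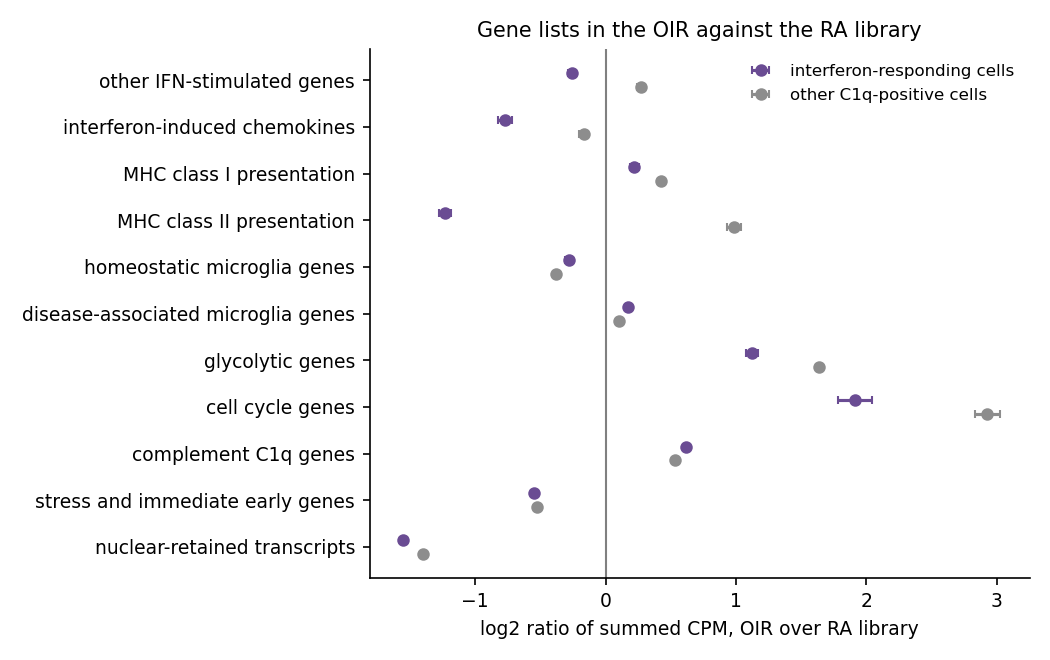
Log2 ratio of summed CPM, OIR over RA library (x axis), for 11 gene lists (y axis) in interferon-responding and other C1q-positive cells, with 95% counting intervals and 1 library per condition. Glycolytic genes stand at 1.12 and 1.64 and nuclear-retained transcripts at -1.55 and -1.40. MHC class II genes stand at -1.23 and 0.99, of which the first reversed to 2.99 for cells chosen anew at 2000 UMIs per cell.

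Lyz2, or lysozyme M, ranked first in OIR to RA ratio among interferon-responding cells after 5 CPM was added, at 2075 against 16.1 CPM, with UMIs in 106 of 116 and 15 of 99 cells. It was higher in OIR in the other C1q-positive cells too, by a larger ratio, at 1007 against 1.82 CPM. Over interferon-responding and other cells together, Lyz2 was at 2639 against 20.6 CPM in monocyte-marker cells, 2093 against 19.2 CPM in macrophage-marker cells and 623 against 0.122 CPM in marker-free cells, where RA held 1 UMI. Xist, the transcript of the inactive X chromosome, was at 77.3 CPM in OIR and 605 CPM in RA. The labels give the same strain for both libraries, and how the pups of each pool differed was not tested. Spp1 was at 349 against 64.8 CPM, in 45 and 4 cells, and Lpl at 249.9 against 79.3 CPM.

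The genes outside the selection with the largest ratios in RA came partly from 1 cell. This cell held 48360 UMIs, 4 selecting genes and 3 C1q UMIs, just enough to enter, together with 5359 of the 5368 Hbb-bs UMIs of the group and all 167 UMIs of Cldn5, an endothelial tight junction gene. Without it the leading genes in RA were H2-Aa, H2-Eb1, Ifi203, H2-Ab1, Iigp1, Ifi211, Cd74, Mndal, F13a1 and Bmp2. The other interferon-stimulated genes then had a log2 ratio of 1.89 (1.86 to 1.92). Bmp2, a growth factor of the TGF-β family, was at 732 UMIs in 50 of 98 cells, or 389 CPM, against 24.7 CPM in the other cells.

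In OIR the leading genes were S100a9, Iigp1, Oasl1, Lyve1, Ifi203, Ifi211, Mrc1, Cp, Mndal and Ifi47. S100a9, a neutrophil alarmin, rested on 196 UMIs in 2 cells, while Cp, the ferroxidase ceruloplasmin, had UMIs in 58 of 116 cells and stood at 164 against 25.1 CPM. The genes lower in RA interferon-responding cells began with Tcim, Rab6b and Arhgef40, and included Gpr84, a fatty acid receptor of myeloid cells, at 664 against 1467 CPM. In OIR the lower genes were led by Hbb-bs and rod genes such as Sag, or rod arrestin, at 23.9 against 298 CPM, and 1 other C1q-positive cell held 57.2% of the Sag UMIs of its group. 

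Markers of other cell types were measured beside these lists. The 8 border macrophage markers summed to 3831 against 403 CPM in RA and 4026 against 856 CPM in OIR, with Pf4 the most abundant. The 7 monocyte markers summed to 533 against 63.8 CPM and 303 against 161 CPM, with Plac8 the most abundant at 307 and 119 CPM. Neutrophil markers summed to 3 UMIs in RA and 320 in OIR, rod markers to 1014 and 309, and Müller glia and astrocyte markers to 1211 and 985. Glul, a gene of the last list, had a UMI in 93.9% of interferon-responding cells in RA and 92.2% in OIR. The other C1q-positive cells held it in 92.97% and 81.37%, and rods in 17.7% and 21.3%, so this list is not specific to glia here. Gfap, of the same list, had a UMI in 2.02% and 4.31% of interferon-responding cells, and Aqp4 in 2.02% and 0%. Plasmacytoid dendritic cell markers were led by Bst2, also an interferon-stimulated gene, with 3 of 6 markers at 0 in both libraries. Interferon regulatory factors stood at -0.18 and -0.12 and stress and immediate early genes at -0.02 and -0.04 on the log2 scale. Lymphocyte and cone markers were at or near 0 in the interferon-responding cells, with 1 and 1 UMIs in RA and 2 and 1 UMIs in OIR.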

How the data were processed

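Unique molecular identifier counts per gene and cell were deposited by the authors as 1 matrix per library. Per the file headers they came from Cell Ranger 3.1.0, and the submitters' processing notes name Seurat and mm10. Cells over 20% mitochondrial UMIs (125 in RA and 55 in OIR) were left out of the C1q-positive cells. Levels were pooled per group of cells and divided by the group's total UMIs. Ratio intervals were exact and conditional on the summed UMIs, and share intervals were exact Clopper-Pearson intervals, all at 95%. With 1 library per condition, no model was fitted and no p-value computed. The members and all 30 gene lists were chosen with earlier results of these data known. The named genes were the 10 in each direction with the largest log2 ratio after adding 5 CPM, outside the selecting genes, together with the lists' members. Scrublet marked 4 cells in RA and 2 in OIR, under 0.5%, of which 0 and 1 were interferon-responding. No doublets were removed, and whether Scrublet missed doublets was not tested. The thinning used seed 1. The ratio step recovered known changes in simulated counts that varied by counting error alone. UMIs clumped in single cells, as for Hbb-bs, were not simulated. Python 3.11.15, numpy 2.4.6, scipy 1.17.1, pandas 2.3.3, scanpy 1.11.5 and matplotlib 3.10.9 were used. Alternatives changed the limits on mitochondrial UMIs, C1q UMIs and selecting genes, the depth, the averaging and the cells left out. Some members of the gene lists are not reported here.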

Additional observations from a re-analysis of the deposited data

Results flagged for a closer look

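Endothelial and pericyte markers stood above the other C1q-positive cells in the interferon-responding cells of RA, at a log2 ratio of 2.57, and below them in OIR, at -0.95. All 167 Cldn5 UMIs of the RA group lay in 1 cell, and in OIR all 27 of the other cells lay in 1 cell. Vtn, a gene of this list, had a UMI in 85.0% of rods in RA and 88.4% in OIR, so the list is not specific to vessels here. Erythroid markers stood at 7.78 in RA and -6.96 in OIR. In RA the same cell held 5359 of 5368 Hbb-bs UMIs, and in OIR 1 of the other cells held 1067 of 1297. Lens crystallins stood at 1.69 in RA and -0.82 in OIR, with 13 of the 22 Cryaa UMIs of the RA group in 1 cell. The directions were opposite in the libraries, and these differences were not tested.

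Among cells with under 3 C1q UMIs, which entered the comparisons only as rods, 15 of 386 in RA and 7 of 299 in OIR held at least 4 of the selecting genes, against 0 in rods of both libraries. The 15 and 7 cells, deeper than the rods, had medians of 11192 and 7148 UMIs. At least 3 UMIs of homeostatic microglia genes were held by 12 and 5 of them, and of monocyte markers by 11 and 5. Endothelial and pericyte markers reached 3 UMIs in 4 and 1 of them, and dendritic cell markers in 3 and 1. The 386 and 299 cells include rods. Of those with at least 3 UMIs of monocyte markers, 11 of 36 in RA and 5 of 41 in OIR held 4 selecting genes.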

How the results depend on the processing

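The log2 ratio of the other interferon-stimulated genes kept its direction in both libraries under all 19 alternatives, of which 3 were chosen after seeing the data. With at least 10 C1q UMIs the RA ratio of these genes was 1.89 and the OIR Malat1 ratio -0.13. With at least 3 selecting genes the shares were 14.8% in RA and 18.2% in OIR, the OIR Malat1 ratio -0.076 and the OIR to RA ratio of glycolytic genes 1.19. With at least 5 they were 8.64%, 9.06%, -0.25 and 1.17, and the interferon-stimulated ratios 1.90 and 1.29. At 2000 UMIs, where the rule chose the cells anew, the shares were 3.29% and 2.69%. The interferon-stimulated ratios were then 2.45 and 1.90 and Malat1 0.019 and -0.049. MHC class II genes reversed to -0.83 in RA and to 2.99 for OIR over RA, with depth and cells changed together. As means over cells the interferon-stimulated ratios were 2.13 and 1.49 and Malat1 -0.068 and 0.087. A mitochondrial limit of 10% gave 1.90 in RA, and leaving out ribosomal protein and mitochondrial genes gave 1.04 for glycolytic genes. With the other cells weighted to the depth of the interferon-responding cells, the interferon-stimulated ratios were 1.80 and 1.27 and Malat1 -0.091 and -0.044. Without macrophage-marker cells the shares were 3.88% and 5.34%, the interferon-stimulated ratios 1.74 and 1.39, Malat1 0.078 and -0.093 and glycolytic genes 1.28, and in RA cell cycle genes reversed to -0.57 and macrophage markers to -0.53. Without cycling cells in OIR the interferon-stimulated ratio was 1.49 and Malat1 -0.085 and glycolytic genes 0.98. Without monocyte-marker cells the OIR ratio was 1.49, and without rod-rich cells OIR Malat1 was -0.10. Without the 2% of cells with the most genes the values were 1.9999 and 1.43 for interferon-stimulated genes, -0.030 and -0.014 for Malat1 and 1.18 for glycolytic genes. In macrophage-marker cells alone, added after seeing the data, the shares were 58.8% and 44.0%, the interferon-stimulated ratios 0.94 and 0.65, and the Malat1 ratios 0.20 and 0.065, with MHC class II genes reversed to -0.055 in OIR. In marker-free cells alone, also added, the shares were 3.38% and 4.49%, the interferon-stimulated ratios 1.62 and 1.67, RA Malat1 0.036 and glycolytic genes 1.28, with MHC class II genes reversed to -0.25 in OIR and macrophage markers to -0.68 in RA and -0.066 in OIR. Macrophage-marker cells were left out by UMIs of genes in the macrophage list, so the reversals of that list were largely set by leaving them out. The cause of the other changes was not tested. No paired analysis was possible because each condition had 1 library. Depth limits the selection itself, since shallow cells can hold too few UMIs to show 4 genes.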
